A study of Saccharomyces cerevisiae with 12 samples.

Results

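Meiosis and spore formation in budding yeast (Saccharomyces cerevisiae) are run by a small set of regulators and carried out by further proteins. Described here are 10 genes of both kinds, in cells that were growing vegetatively. The genes are IME1, IME2, IME4, RME1, UME6, NDT80, RIM4, SPO11, HOP1 and RED1. They were chosen by name as regulators and early proteins of the program, and taken from the table by gene ID. All 10 are called regulator genes below for short, though RED1, HOP1 and SPO11 encode proteins that act on meiotic chromosomes. Earlier results of these data were known at that choice. All 10 were found among the 6571 genes of the deposited table. The libraries came from wild type (WT) and from tSH2Δ, an spt6 allele that lacks the tandem SH2 domain, both labelled as strain S288C. The table's column headings give S288C for WT and no background for the mutant, so other differences between the strains cannot be told apart from the allele. Spt6 is a histone chaperone that moves with RNA polymerase II, and its tandem SH2 domain binds the polymerase. Each strain has 3 RNA libraries, from cultures diluted to an optical density of 0.2 in rich glucose medium (YPD) and grown for 4 h, with no treatment.

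In diploid cells that are starved of nitrogen and of a fermentable sugar, the activator Ime1 starts meiosis by turning on early genes that the DNA-binding protein Ume6 otherwise keeps off. The kinase Ime2 and then the activator Ndt80 carry the program into the meiotic divisions and spore formation. Haploid cells do not enter it, in part because the haploid-specific repressor Rme1 holds IME1 down, and rich medium holds IME1 down in any cell type. Laboratory strains of the S288C background sporulate poorly. The medium used here, YPD, is one that keeps the program off.

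RNA was sequenced as total RNA after depletion of ribosomal RNA, with single-end reads of 50 bases. The deposited unit is RPKM, reads divided by gene length in kilobases and by the size of the library, and the libraries hold 20483931 to 27069700 reads. The levels below are rescaled RPKM, which means RPKM divided by a factor for each library, the median over genes of its ratio to the geometric mean of the libraries. Log2 changes are tSH2Δ over WT on the log2(rescaled RPKM + 1) scale, which understates changes of low genes, and a gene is called where limma's adjusted p is under 0.05. In the RPKM as deposited the median tested gene stood 0.57 higher in tSH2Δ on the log2 scale, so every change here is relative to that shift. SPT6 itself stood at 180.1 ± 5.75 in WT and 84.5 ± 0.814 in tSH2Δ (both SD, n = 3), with a log2 change of -1.08, over an annotated gene that includes the part absent from the mutant. The labels do not say whether replicates were separate cultures, and the p-values reflect only the spread among these libraries, which may be technical. Bulk RNA does not separate fewer cells with a transcript from less transcript per cell.

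The mating type of the cells was read from markers. The summed level of 7 a-specific genes lay between 3921 and 4111 rescaled RPKM in WT and between 2102 and 2313 in tSH2Δ, while that of 4 alpha-specific genes lay between 30.3 and 31.0 in WT and between 84.9 and 86.7 in tSH2Δ. In both strains the a-specific genes thus far exceeded the alpha-specific ones. Counts of called markers are to be read beside the shares over all genes tested. These were 41.6% higher and 41.9% lower after rescaling, and 72.4% and 17.3% in the deposited RPKM. All 7 a-specific genes were called lower in tSH2Δ after rescaling, and 3 lower and 1 higher in the deposited RPKM. Of the alpha-specific genes MF(ALPHA)2 and SAG1 were higher, STE3 was lower, and MF(ALPHA)1, with no read in WT replicate 2, was too low to test. The 7 haploid-specific genes summed to between 676.4 and 700.0 in WT and between 619.2 and 631.3 in tSH2Δ, with 4 called lower after rescaling and all 7 called higher in the deposited RPKM. The part of mating type in the results below was not tested.

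Of the 10 regulator genes, 6 were higher in tSH2Δ, 3 were lower and 1 did not pass the test. The higher genes were RED1, RIM4, IME4, IME2, HOP1 and NDT80, the lower ones were IME1, RME1 and UME6, and SPO11 was not called. Calls are common in this comparison. Of 6307 genes tested, 83.5% were called, 41.6% as higher and 41.9% as lower, so 9 of 10 called is near the background. Of all calls 49.9% were higher, and 80.7% in the deposited RPKM. The sizes give more detail. A log2 change of at least 1 with a call was reached upward by 4 of the 10 (RED1, RIM4, IME4 and IME2) against 7.9% of all genes, and downward by 1 of the 10 (IME1) against 9.5%. The median of the 10 was 0.59, beside 0.01 over all genes tested. Genes with mean levels in the range of the 10 had a median of 0.22. Shares with a log2 change of at least 1 were not computed for genes in that range. The 10 were chosen with earlier results of these data known, so these shares describe them and test nothing.

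**Figure D1:**
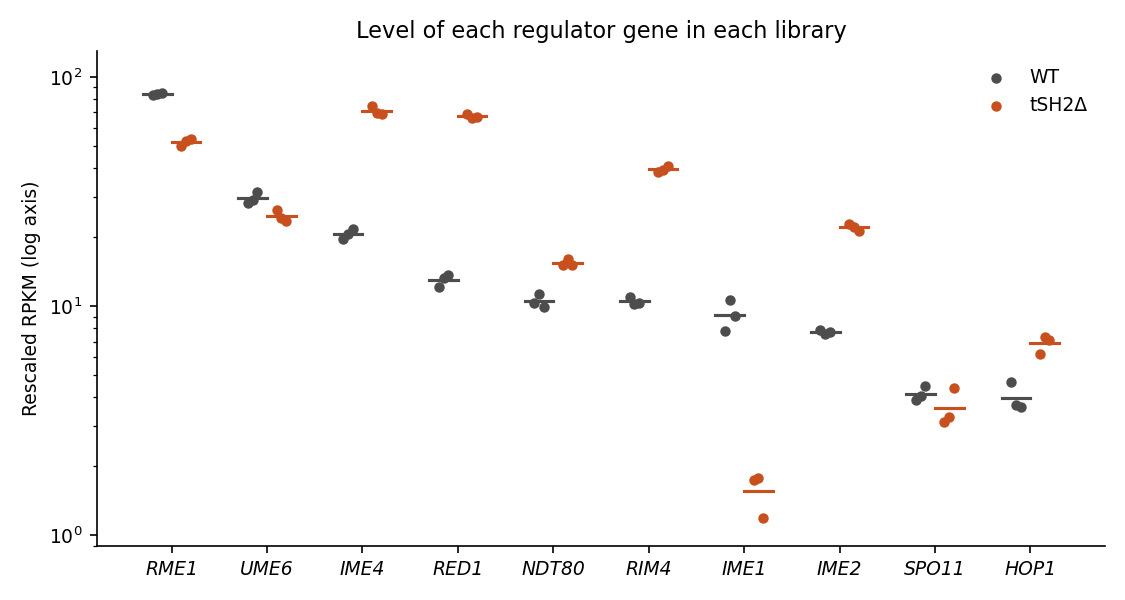
Rescaled RPKM (log axis) of each regulator gene in each library, with 3 points per strain and a line at the mean, ordered by level in WT. IME4, RED1, RIM4 and IME2 stand well above WT in all 3 tSH2Δ libraries, IME1 stands well below, and the points of SPO11 overlap.

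All 10 genes had reads in every library, from 42 to 5441 per gene and library, and at least 1 RPKM in each. In WT, RME1 was the highest at 83.9 ± 0.816 rescaled RPKM (SD, n = 3), above 67.2% of all genes in the table. UME6, IME4, RED1, NDT80, RIM4, IME1, IME2, SPO11 and HOP1 followed, from 29.6 down to 3.98, or from the 31.2 percentile of levels down to the 8.0 percentile. The ranges of NDT80 and RIM4, of RIM4 and IME1, of IME1 and IME2, and of SPO11 and HOP1 overlapped in WT, so those neighbours in the order did not differ beyond their spread. The order was different in tSH2Δ, where no neighbours overlapped. IME4 came to the top at 71.1, then RED1 at 67.2, RME1 at 52.0, RIM4 at 39.6, UME6 at 24.6, IME2 at 22.1, NDT80 at 15.5, HOP1 at 6.86 and SPO11 at 3.59, and IME1 came last at 1.57. Levels in this paragraph are per length of gene.

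IME1 (YJR094C, chromosome X, 604569 to 605651 in assembly R64, the assembly of sacCer3) encodes the activator that starts meiosis. It was lower in the mutant. Levels were 7.74, 10.6 and 9.07 rescaled RPKM in the WT libraries and 1.74, 1.77 and 1.19 in the tSH2Δ libraries, in replicate order. Every tSH2Δ library was far below every WT library. The mean fell from 9.14 ± 1.43 to 1.57 ± 0.326 (SD, n = 3), 5.84-fold lower, with a log2 change of -1.98 (SE 0.142, limma adjusted p = 2.42e-06). Only 40 of the genes tested had a smaller log2 change. The values rest on 161 to 191 reads per WT library and 42 to 60 per tSH2Δ library. The direction was the same under every scaling, at -1.54 with RPKM as deposited and -2.30 after quantile normalization.

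The length of DNA upstream of IME1 holds IRT1, a noncoding RNA that in haploid cells is switched on by Rme1 and read through the IME1 promoter. IRT1 (chromosome X, 605936 to 607424) does not overlap the coding region, and its level was not analysed here. The next measured gene on one side is FIP1, 365 bases away on the same strand, which encodes a factor of mRNA polyadenylation. FIP1 was higher in tSH2Δ at 52.1 ± 0.882 against 33.9 ± 4.14 in WT (SD, n = 3), a log2 change of 0.61. Within single libraries, where no scaling matters, IME1 stood at 0.258, 0.317 and 0.237 of the FIP1 level in WT and at 0.0340, 0.0337 and 0.0225 in tSH2Δ. On the other side RPL43B, a ribosomal protein gene 2653 bases away, had a log2 change of -0.56 that was 0.02, with no call, in the deposited RPKM.

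RME1 (YGR044C, chromosome VII, 582990 to 583892) encodes the zinc finger repressor of IME1. Its rescaled RPKM was 83.1, 84.1 and 84.7 in WT and 49.8, 52.7 and 53.5 in tSH2Δ. The groups did not overlap, and the mean was 1.61-fold lower in tSH2Δ, with a log2 change of -0.68 (SE 0.0380, limma adjusted p = 5.27e-07). The difference was smaller before rescaling. In the deposited RPKM the means were 68.7 ± 1.35 and 63.7 ± 1.93 (SD, n = 3) and the log2 change was -0.11 (limma adjusted p = 0.0276). The gene and its target were therefore both lower in tSH2Δ. Within libraries IME1 stood at 0.109 ± 0.0166 of the RME1 level in WT and at 0.0302 ± 0.00697 in tSH2Δ (SD, n = 3), and the values of the strains did not overlap (exact two-sided permutation p = 0.1, the smallest that 3 against 3 libraries can give). The pairs for such ratios were chosen after the data were seen, so their permutation p-values, here and below, are descriptive only.

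UME6 (YDR207C, chromosome IV, 865012 to 867522) encodes the protein that binds the promoters of early meiotic genes and recruits the Rpd3 deacetylase and the Isw2 remodeler. The libraries gave 28.0, 29.1 and 31.6 rescaled RPKM in WT and 26.3, 24.1 and 23.5 in tSH2Δ. The groups were close but did not overlap. The log2 change was -0.25 (SE 0.0611, limma adjusted p = 0.00436), and it turned to 0.31 with RPKM as deposited (limma adjusted p = 0.00236) and to 0.20 with total-sum scaling. The direction of UME6 is thus set by the scaling. Within libraries RME1 stood at 2.84 ± 0.145 of the UME6 level in WT and at 2.12 ± 0.200 in tSH2Δ (SD, n = 3).

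IME4 (YGL192W, chromosome VII, 142246 to 144048) encodes the methyltransferase that places N6-methyladenosine on mRNA during meiosis. The libraries gave 19.6, 20.6 and 21.7 rescaled RPKM in WT and 74.4, 69.8 and 69.2 in tSH2Δ. All tSH2Δ libraries were far above all WT libraries. The mean rose 3.44-fold, with a log2 change of 1.74 (SE 0.0505, limma adjusted p = 2.11e-08), and it stood at the 62.7 percentile of levels in tSH2Δ against 22.3 in WT. In the deposited RPKM the log2 change was 2.30.

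The reads of IME4 cannot be assigned to IME4 mRNA alone. An antisense RNA, RME2 (chromosome VII, 141898 to 144120), is annotated across 100% of the gene on the other strand, and in haploid cells it is the main transcript of the locus. A separate value for RME2 was not used here. The library kit keeps strand, but overlapping genes on opposite strands had close levels in the table. Among 16 pairs of annotated genes in which at least 90% of the smaller gene lies opposite the larger, 15 had reads in both, and in those the mean RPKM of the partners differed by 1.02-fold to 1.78-fold, with a median of 1.34. Sense and antisense reads therefore cannot be told apart here, for IME4 or for any other gene described. A rise or fall of a gene may thus include antisense reads, which was not tested. YGL193C, an open reading frame 18 bases from IME4 on the strand of RME2 and within the RME2 span, went from a mean of 37.0 ± 1.76 to 141.6 ± 6.82 (SD, n = 3, rescaled RPKM), which is a log2 change of 1.91. HOS2, a histone deacetylase gene next to it on that strand and named after its values were seen, went from 52.2 ± 2.22 to 164.5 ± 3.25, a log2 change of 1.64. Within libraries IME4 stood at 0.561, 0.548 and 0.568 of the YGL193C level in WT and at 0.530, 0.469 and 0.511 in tSH2Δ, lower in every tSH2Δ library (exact two-sided permutation p = 0.1, the smallest possible). Relative to HOS2 the ratio went the other way. IME4 stood at 0.380, 0.410 and 0.398 of the HOS2 level in WT and at 0.459, 0.415 and 0.424 in tSH2Δ. The tSH2Δ values were all higher (exact two-sided permutation p = 0.1). On the other side COX13, a subunit gene of cytochrome c oxidase on the strand of IME4, rose by less, with a log2 change of 0.80.

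**Figure D2:**
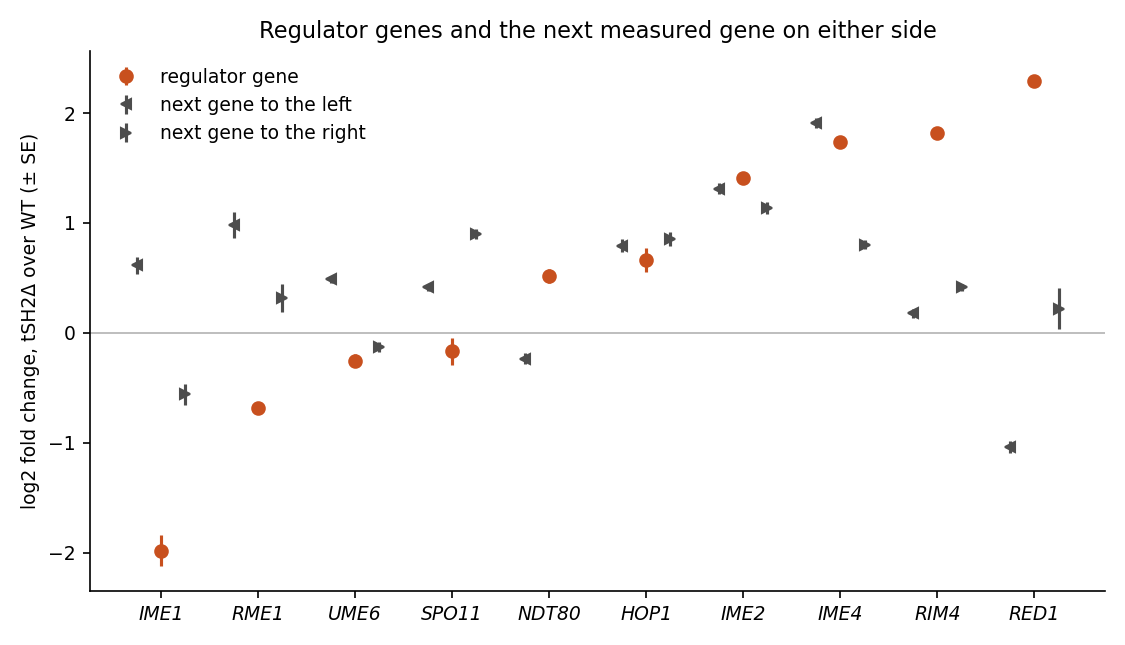
Log2 fold change (± SE) of each regulator gene (circles) and of the next measured gene to its left and right on the chromosome (triangles), ordered by the change of the regulator. RED1, RIM4, RME1, IME1 and SPO11 stand apart from both neighbours, and IME2, IME4, HOP1 and UME6 lie near at least 1 of theirs. The gene to the right of NDT80 was below the level needed for testing and is not drawn.

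IME2 (YJL106W, chromosome X, 221390 to 223327) encodes a kinase that Ime1 induces in meiosis and that drives premeiotic DNA replication and the expression of NDT80. Its rescaled RPKM was 7.87, 7.57 and 7.70 in WT and 22.9, 22.2 and 21.3 in tSH2Δ. The groups were far apart and tight. The mean rose 2.87-fold, with a log2 change of 1.41 (SE 0.0545, limma adjusted p = 7.57e-08). IME2 rose while IME1 fell. Within libraries IME2 stood at 1.02, 0.714 and 0.849 of the IME1 level in WT and at 13.2, 12.6 and 17.9 in tSH2Δ. The genes on both sides also rose, YJL107C by 1.31 on the log2 scale and SET4, which encodes a SET domain protein, by 1.14. IME2 relative to YJL107C stood at 0.246 ± 0.0185 in WT libraries and 0.279 ± 0.00420 in tSH2Δ (SD, n = 3).

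NDT80 (YHR124W, chromosome VIII, 356561 to 358444) encodes the activator of middle meiotic genes. Its rescaled RPKM was 10.3, 11.3 and 9.93 in WT and 15.2, 16.1 and 15.1 in tSH2Δ. The groups did not overlap. The mean rose 1.47-fold, with a log2 change of 0.52 (SE 0.0645, limma adjusted p = 8.18e-05), but after quantile normalization it was 0.12 (limma adjusted p = 0.119) and no longer called. Relative to EPT1, its neighbour on the same strand, which encodes an enzyme of phospholipid synthesis, NDT80 went from 0.168 ± 0.00913 to 0.291 ± 0.0137 (SD, n = 3).

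RIM4 (YHL024W, chromosome VIII, 56649 to 58790) encodes an RNA-binding protein that acts early as an inducer of meiosis and later holds back the translation of middle meiotic mRNAs. Levels were 10.9, 10.2 and 10.3 rescaled RPKM in WT and 38.5, 39.3 and 41.0 in tSH2Δ. There was no overlap, and the mean rose 3.78-fold, with a log2 change of 1.82 (SE 0.0495, limma adjusted p = 1.75e-08). RIM4 and NDT80 had nearly equal levels in WT, with a ratio of 1.00 ± 0.0866, and in tSH2Δ RIM4 stood at 2.56 ± 0.134 times NDT80 (SD, n = 3). The genes next to RIM4 changed little by comparison, with log2 changes of 0.18 for SNF6, a subunit gene of the SWI/SNF remodeler, and 0.41 for NPR3, a gene of nutrient signalling to the TORC1 kinase.

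RED1, HOP1 and SPO11 act on meiotic chromosomes. Spo11 cuts DNA to start recombination, and Red1 and Hop1 are proteins of the chromosome axis that shape where cuts are made and direct their repair to the homologous chromosome. These 3 genes behaved differently from each other in tSH2Δ.

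RED1 (YLR263W, chromosome XII, 670340 to 672823) had the largest rise of the 10 genes. Levels were 12.0, 13.2 and 13.6 rescaled RPKM in WT and 68.6, 66.0 and 67.1 in tSH2Δ. All tSH2Δ libraries were several times above all WT libraries. The mean went from 12.9 ± 0.805 to 67.2 ± 1.29 (SD, n = 3), 5.19-fold higher, with a log2 change of 2.29 (SE 0.0515, limma adjusted p = 9.37e-09), and only 29 of the genes tested had a larger one. As deposited, the rise was 7.78-fold. TMA7, which encodes a ribosome-associated protein and is read away from RED1, had a log2 change of -1.04. RPS28B, a ribosomal protein gene 307 bases downstream on the same strand, was not called at 0.22 (limma adjusted p = 0.292). RPS28B spread widely among WT libraries, and without WT replicate 3 its log2 change was -0.01. RPS28B was called higher in the deposited values, at 0.80, with total-sum scaling, at 0.69, and after quantile normalization, at 0.58. TMA7 was called lower as deposited, at -0.46.

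HOP1 (YIL072W, chromosome IX, 226602 to 228419) had the lowest mean of the 10 genes in WT, in a range that overlapped that of SPO11. Levels were 4.64, 3.70 and 3.61 rescaled RPKM in WT and 6.15, 7.35 and 7.10 in tSH2Δ, from 112 to 162 reads per WT library and 344 to 421 per tSH2Δ library. The groups did not overlap, and the mean rose 1.72-fold, with a log2 change of 0.66 (SE 0.111, limma adjusted p = 0.000538). Its neighbours rose to a like extent, SPO22 (the meiotic gene also called ZIP4) by 0.79 and PCI8 by 0.85 on the log2 scale. Relative to SPO22, HOP1 stood at 0.472 ± 0.0462 in WT libraries and 0.448 ± 0.0431 in those of tSH2Δ (SD, n = 3, exact two-sided permutation p = 0.6), with overlapping values. RED1 and HOP1 thus parted. Within libraries RED1 stood at 2.60, 3.56 and 3.77 of the HOP1 level in WT and at 11.2, 8.98 and 9.46 in tSH2Δ, a 3.01-fold change of the ratio that no library scaling can alter (exact two-sided permutation p = 0.1, the smallest possible). This pair, too, was chosen after the data were seen.

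SPO11 (YHL022C, chromosome VIII, 62961 to 64157) had rescaled RPKM of 3.87, 4.07 and 4.46 in WT and 3.12, 3.28 and 4.38 in tSH2Δ, from 81 to 171 reads per library. Replicate 3 of tSH2Δ lay inside the WT range and the other tSH2Δ libraries lay below it. The log2 change of -0.17 was not called (SE 0.126, limma adjusted p = 0.239), and it was 0.29 with RPKM as deposited (limma adjusted p = 0.0514) and -0.45 after quantile normalization (limma adjusted p = 0.00966). Without tSH2Δ replicate 3 it was -0.29 (limma adjusted p = 0.0471). The genes on both sides, NPR3 and AIM17, were higher in tSH2Δ, and relative to AIM17 SPO11 stood at 0.120 ± 0.00720 in WT and at 0.0556 ± 0.0141 in tSH2Δ (SD, n = 3).

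**Figure D3:**
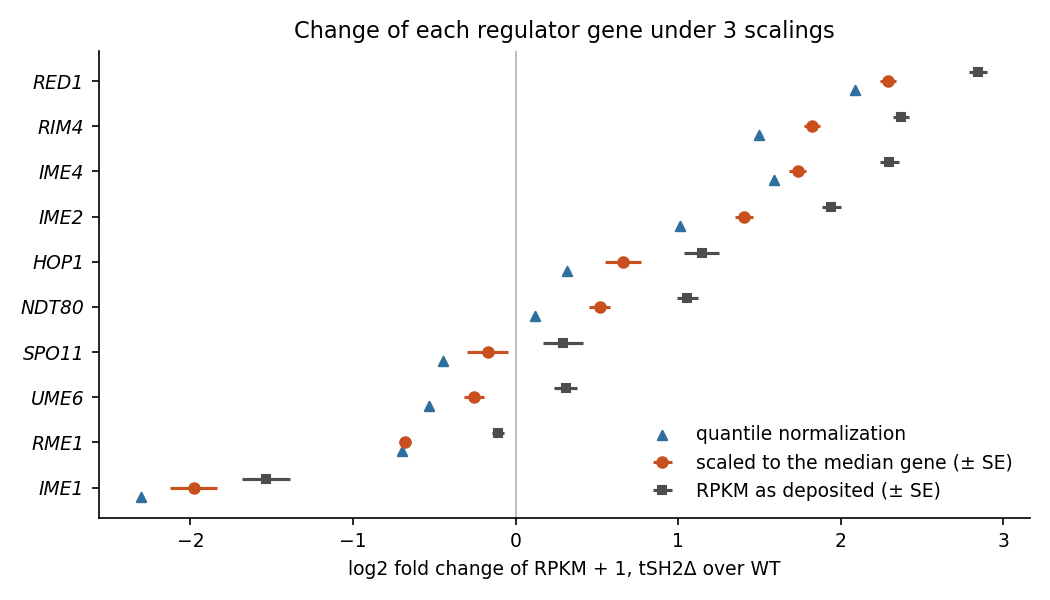
Log2 fold change of each regulator gene with libraries scaled to the median gene (circles, ± SE), with RPKM as deposited (squares, ± SE) and after quantile normalization (triangles, drawn without error). IME1 and RME1 are below 0 and RED1, RIM4, IME4, IME2, HOP1 and NDT80 above 0 in all 3, while UME6 and SPO11 change sign.

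Across scalings, 8 of the 10 genes kept their sign. In the deposited RPKM 7 were called higher and 2 lower, where 89.7% of all genes were called, 72.4% as higher and 17.3% as lower, and after quantile normalization 5 were higher and 4 lower, where 40.0% and 41.1% of all genes were. The values of the strains did not overlap for 9 of the 10 genes after rescaling, where 84.7% of all genes tested did not overlap. Among the 3470 genes whose mean level lay within that of the 10, from 3.86 to 68.0 rescaled RPKM, 55.9% were called higher and 24.7% lower, and their median log2 change was 0.22. In the authors' deposited table, which lists 2890 genes, 7 of the 10 are found. The log2 ratios in the authors' deposited table are 2.85 for RED1, 2.37 for RIM4, 2.30 for IME4, 1.94 for IME2, 1.14 for HOP1, 1.06 for NDT80 and -1.54 for IME1. They come from the same RPKM values as the changes given here, but without the rescaling. They are therefore to be read beside the changes as deposited and not the rescaled ones. RME1, UME6 and SPO11 are not listed there.

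**Figure D4:**
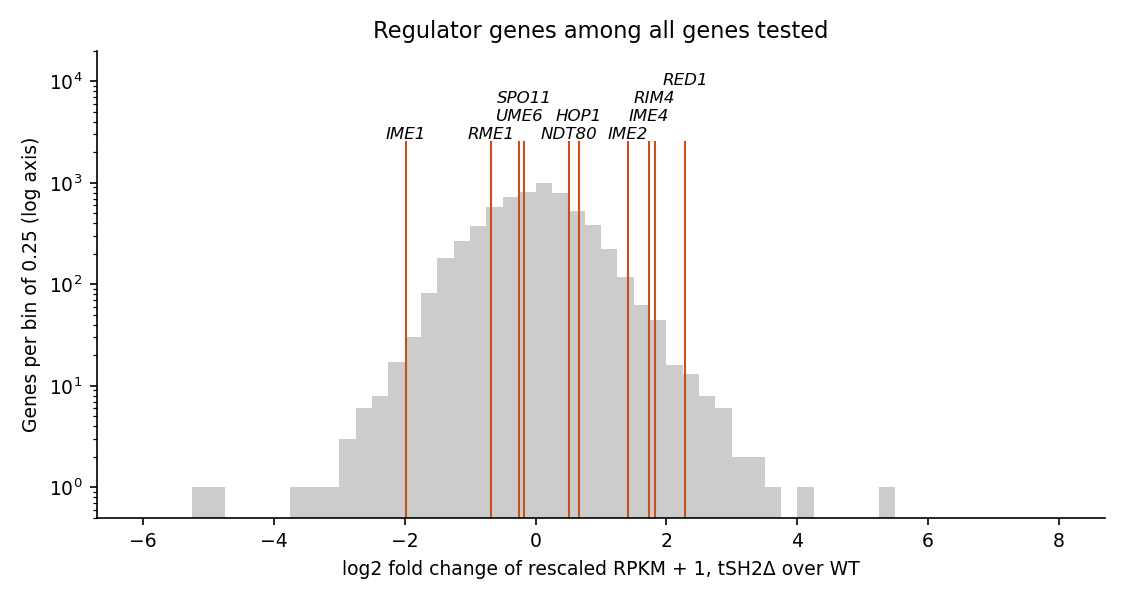
Number of genes (log axis) in bins of 0.25 of the log2 change for the genes tested, with a line for each regulator gene. RED1 has 29 genes above it and IME1 has 40 below it, while UME6 and SPO11 lie in the middle of the distribution.

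The measured genes next to the regulators, 19 in all, were called higher for 13 and lower for 4, where 41.6% and 41.9% of all genes were, with 1 not called and YHR125W next to NDT80 below the level for testing. As deposited, 16 were higher and 1 lower, where 72.4% and 17.3% of all genes were. The neighbours of UME6 and RME1 had log2 changes of 0.49 for EBS1, -0.13 for MSS4, 0.98 for NQM1 and 0.32 for YGR045C. MSS4 was not called without WT replicate 2 or 3 or without tSH2Δ replicate 1 or 3, at -0.14 to -0.10. YGR045C was not called when any library other than tSH2Δ replicate 1 was left out, at 0.21 to 0.35, nor with voom (0.38) or after quantile normalization (0.14). In the deposited RPKM MSS4 and EPT1 were higher, at 0.44 and 0.34. YGR045C lies 41 bases from RME1 on the same strand.

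Other genes of the pathway were described by 8 lists, which together hold 111 distinct genes. Of these 105 were tested, with 59 called higher (56.2%) and 24 lower (22.9%) and a median log2 change of 0.33. Over all genes tested the shares were 41.6% and 41.9%. Among genes with levels in the range of the 10 regulators they were 55.9% and 24.7%, close to those of the lists. That range was not matched to the list genes, and the median WT level of the lists ran from 4.21 to 80.1 rescaled RPKM. In the deposited RPKM 82 list genes were higher and 8 lower, where 72.4% and 17.3% of all genes were. The counts of single lists below are to be read beside these shares. SPO19 (named after its values were seen) and SMA1 reached the level for testing only through the tSH2Δ libraries, and without them, a check chosen after seeing the data, 57 of 103 were higher and 24 lower. The lists share genes, since 5 genes of the break machinery are also early meiotic genes and SLZ1 is in both its lists.

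Of 22 genes that feed signals to IME1, 12 were higher and 8 lower, where 41.6% and 41.9% of all genes were, and the median was 0.25 (17 higher and 3 lower as deposited). YHP1, a homeodomain repressor, rose from a mean of 40.1 ± 2.22 to 107.7 ± 2.93 (SD, n = 3, rescaled RPKM), which is a log2 change of 1.40. RIM9, of the Rim101 pH pathway, rose by 1.18. TPK3, a catalytic subunit gene of protein kinase A, fell from 141.0 ± 5.68 to 59.5 ± 2.46 (SD, n = 3), a log2 change of -1.23. MSN4, a stress activator that binds the IME1 promoter, changed by -0.89. TPK3 and MSN4 both lie on chromosome XI. The other listed genes there, STE6, STE3 and ASH1, were also called lower, though ASH1 was called higher in the deposited RPKM. The part of this location in the falls was not tested. Of 15 genes of the Rpd3 and Isw2 complexes and their partners that repress with Ume6, 8 were higher and 3 lower, and the median was 0.20 (13 higher and 0 lower as deposited). SAP30 (0.87) and SDS3 (0.79) rose. SIN3, the corepressor scaffold, had a log2 change of -0.64 and ISW2, the remodeler ATPase, of -0.66, and these moved to -0.07 and -0.09 with RPKM as deposited, where neither was called.

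Among partners of Ime4 in the methylation of mRNA, MUM2 rose from a mean of 60.8 ± 1.75 to 118.5 ± 1.71 (SD, n = 3, rescaled RPKM), which is a log2 change of 0.95. SLZ1, another subunit gene of that complex, rose by 0.53, from 3.89 to 6.05, and lost its call after quantile normalization at 0.19. All 3 tested genes of this list were higher, with KAR4 at 0.24, and PHO92, the gene of the m6A reader, was too low to test.

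Of 9 genes that act with Spo11 in making DNA breaks, 5 were higher and 3 lower, and the median was 0.38 (7 higher and 0 lower as deposited). REC107, also known as MER2, rose from a mean of 20.3 ± 0.291 to 61.5 ± 3.10 (SD, n = 3, rescaled RPKM), which is a log2 change of 1.55, and REC104 rose by 0.66. MEI4 (-0.54) and REC102 (-0.41) were lower, and with RPKM as deposited they stood at -0.06 and 0.08 with no call. SKI8, the other gene called lower and named after its values were seen, went from -0.14 to 0.43 and was called higher there. Of 27 early meiotic genes, 25 were tested, 14 were higher, 4 were lower and 7 were not called, with a median of 0.38 (18 higher and 0 lower as deposited), beside 55.9% higher and 24.7% lower among genes in the level range of the regulators. Beside REC107, ZIP2, which encodes a protein that promotes pairing of chromosomes, rose by 1.35. Beside MEI4, ECM11 was lower at -0.61, from 2.79 to 1.47 rescaled RPKM, and uncalled with RPKM as deposited. The median level of the list was 5.04 in WT and 6.05 in tSH2Δ.

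**Figure D5:**
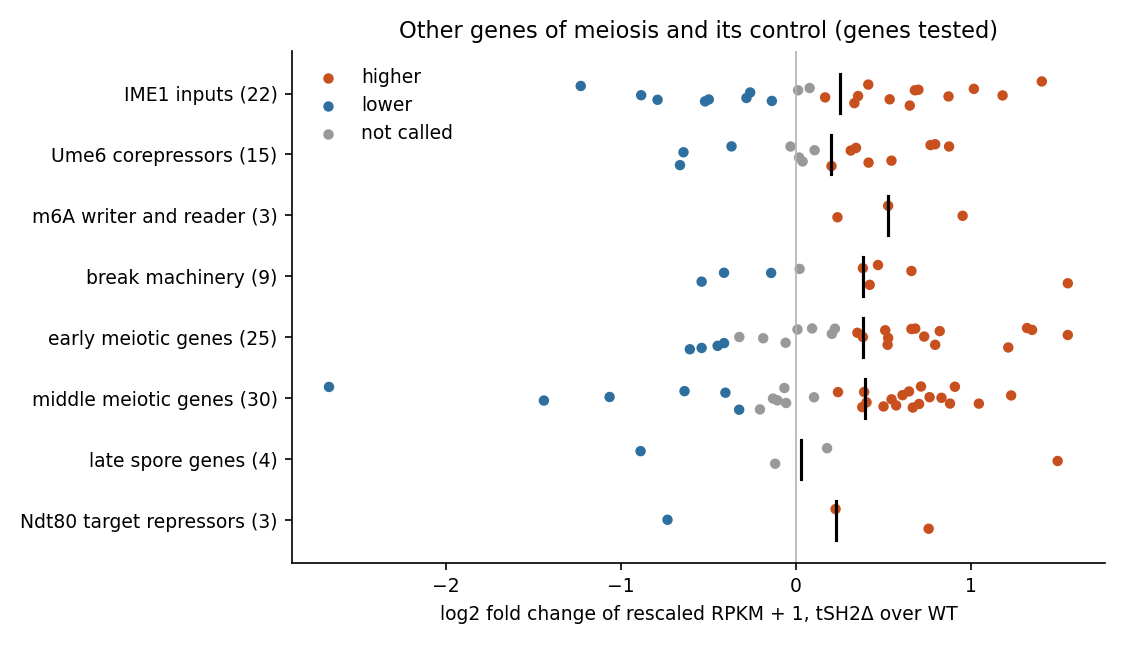
Log2 fold change of each tested gene of 8 lists of meiotic genes and their regulators, coloured by whether the gene was called higher, lower or not called, with a black line at the median of the list and the number tested in brackets. Every list but the m6A genes has members called in both directions, and GAS2 lies farthest to the left.

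Of 33 middle meiotic genes, which Ndt80 induces during meiosis, 30 were tested, 18 were higher and 6 lower, and the median was 0.40 (23 higher and 3 lower as deposited). The shares in the level range of the regulators were again 55.9% and 24.7%, and 2 of the 18, SPO19 and SMA1, were admitted to the test only through the group in which they were high. ISC10, needed for spore formation, stood at 29.2, 30.1 and 33.4 rescaled RPKM in WT and rose to 74.0, 73.2 and 73.5 in tSH2Δ, a log2 change of 1.23. SMA1, of spore membrane growth, had 7, 14 and 14 reads in WT and 68, 66 and 68 in tSH2Δ. GAS2, a glucanosyltransferase gene of the spore wall, fell from 57.3 ± 3.27 to 8.16 ± 0.292 (SD, n = 3), a log2 change of -2.67, and SPO74, of the spindle pole body, fell from 13.5 to 4.34, a change of -1.44. Of 4 late spore genes 1 was higher and 1 lower. SPS100, a spore wall gene, rose by 1.49 and DTR1, a transporter gene of the spore, was lower at -0.89. Of the 3 genes of the Sum1 complex, which keeps middle genes off during growth, SUM1 was lower at -0.73, while RFM1 rose by 0.76 and the deacetylase gene HST1 by 0.23. SUM1 was also called lower in the deposited RPKM, at -0.16.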

How the data were processed

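RNA-seq of 3 WT and 3 tSH2Δ libraries was used. The series also has 6 ATAC-seq libraries, not analysed here. Per gene the authors deposited RPKM, per the file headers, and a second table whose adjusted p-values are from DESeq2 and whose log2 ratios are of mean RPKM plus 1, per the file headers. Per the submitters' processing notes the build was sacCer3. The tools those notes name for both assays include Bowtie 1.1.2, HTSeq 0.6.1 and bedtools 2.25.0, with no role given. The sources used here do not give the annotation, the strand setting or how multiply mapped reads were counted.

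Reads per gene were recovered from RPKM and gene length, and 100% of values came out whole (tolerance 0.01 reads). A row that names no gene, with 0.513% to 0.926% of the reads, was dropped. Intervals for counting error were not computed, and the reads behind each value are given instead. RPKM was divided by median-ratio size factors (0.813 to 0.829 in WT, 1.21 to 1.24 in tSH2Δ). Genes that reached 1 RPKM in 3 or more libraries were tested two-sided with limma 3.58.1 (R 4.3.3, intensity trend) on log2 values with a pseudocount of 1, with Benjamini-Hochberg adjustment over all genes tested. Replicate pairs differed by 3.11 to 18.3 chi-square per gene, above sampling noise. Gene names and spans came from RefSeq R64, where 5897 of 6571 IDs matched, and strand from the W or C of the systematic name. No sequences were used.

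The members and lists were chosen with earlier results of these data known. Named genes are the 10 regulators, SPT6, the next measured gene on either side of each regulator, and up to 2 called genes with the largest rise and fall in each list. The mating markers were a further list, and KAR4, PHO92, HOS2, SKI8, SPO19 and ASH1 were named after their values were seen. Ratios within libraries were computed for 17 pairs chosen after the data were seen, and none of their exact tests can pass 0.05 (an exact p of 0.1 was 0.106 after adjustment over the pairs). Alternatives covered pseudocount, filter, scaling, variance trend, voom on whole reads, a replicate block and leaving out each library.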

Additional observations from a re-analysis of the deposited data

How the results depend on the processing

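The calls of the 10 regulator genes depended on scaling and not on the pseudocount, the intensity trend, voom or the replicate block. With RPKM as deposited and with total-sum scaling without ribosomal protein genes, UME6 turned to 0.31 and 0.20 and SPO11 to 0.29 and 0.21. After quantile normalization NDT80 lost its call at 0.12 and SPO11 gained a call at -0.45. SPO11 could not be tested with a filter of 5 RPKM. Over all genes the counts higher and lower were 4565 and 1091 as deposited and 4259 and 1314 with total-sum scaling, and the distinct list genes called lower numbered 8 and 9 under these. With the replicate block 5054 genes were called, 6 of the regulators higher and 3 lower, and the neighbour YGR045C lost its call (limma adjusted p = 0.0570). Deviations of same-numbered libraries correlated at -0.25, -0.09 and -0.28, and those of differently numbered libraries at -0.08 to 0.27. Taken from means of 3 libraries, these correlations cannot settle whether a number marks a shared culture or batch. Leaving out 1 library gave 6 regulators higher and 3 to 4 lower, and 4985 to 5192 genes called.

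Of the other named genes, REC102 turned to 0.0781 and RPL43B to 0.0243 as deposited, RPL43B also to 0.22 after quantile normalization, EPT1 to 0.34 and 0.23 and MSS4 to 0.44 and 0.34 as deposited and with total-sum scaling. RPS28B ranged from -0.0140 to 0.34 when 1 library was left out, and SPO11 from -0.29 to -0.10. For the 10 regulators, 152 of the values under alternatives kept direction and call, 4 changed sign, 2 gained a call and 1 lost it. Low read numbers limit SPO11, HOP1 and, in tSH2Δ, IME1.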
